A study of Rattus norvegicus with 12 samples.

Results

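The Rab GTPases and EHD proteins direct membrane traffic, and their transcripts were measured in rat liver tumor cells and normal rat liver cells deprived of arginine. A gene was included when a probe set of the Affymetrix RAE230A rat array carried 1 gene symbol only and that symbol began with Rab or Ehd followed by a digit. This gave 54 genes on 73 probe sets, of 10411 genes with such a probe set, and each gene was read from the probe set with the highest mean signal over the 12 arrays. A further 2 probe sets carry the symbols of both Rab1a and Rab1b and were left out. The rule takes in proteins named for a Rab that they bind or regulate, such as Rab11fip5 and Rab3gap2, which are not GTPases themselves.

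The tumor cells were GP7TB, a line obtained from WB-F344 as a clonal derivative after 11 brief exposures to a nitrosoguanidine mutagen, and the normal cells were WB-F344, a diploid epithelial line that comes from an adult male Fischer-344 rat's liver. Subconfluent cultures of both received a custom Chee's Essential Medium with 5% fetal bovine serum for 18 hours, either without arginine (arginine-deficient) or with 0.168 g/l arginine hydrochloride (arginine-sufficient). Each of the 4 groups held 3 arrays, from experiments 1, 2 and 3, and each array measured 1 culture. Each line is a single line, so the comparison of tumor with normal cells compares GP7TB with WB-F344.

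Values are MAS 5.0 signals, the linear brightness of a probe set after the authors scaled each array to a common mean. A signal counted as expressed when it was among the highest 54% of its array, which put the threshold between 146 and 191, and a probe set was tested when it was expressed in at least 3 of the 12 arrays. All tumor arrays were scanned on 1 day and the normal arrays on other days with other chip lots, so cell line and scan day cannot be told apart. Among normal cells, the arginine-sufficient array of experiment 2 was alone on its scan day and chip lot, apart from its arginine-deficient partner. The tumor pairs of experiments 1 and 2 were each split between chip lots. Of 22 cell type markers listed, 19 were on the array and 6 were past the filter. Krt8, a keratin of simple epithelia, was expressed in all 12 arrays, whereas the epithelial markers Krt18, Cdh1 and Epcam were over the threshold in 0. Of the 5 hepatocyte markers, Alb and Ttr were over it in 2 arrays each, Hnf4a in 1 and the others in 0. The 4 mesenchymal markers summed to 12133-16383 in arginine-deficient and 11529-13609 in arginine-sufficient tumor cells, and to 30658-40923 in arginine-deficient and 37556-48771 in arginine-sufficient normal cells.

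Rab proteins are small GTPases that switch between a GDP-bound form in the cytosol and a GTP-bound form on membranes, where they recruit the effectors that bud, move, tether and fuse vesicles. Each Rab marks a compartment, so that the family as a whole spans the route from the endoplasmic reticulum through the Golgi to the surface and back through endosomes to lysosomes. The EHD proteins are ATPases that shape and cut endosomal tubules, by which receptors and transporters return to the cell surface.

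Most of the genes were expressed in these lines. Of the 54, 44 passed the filter: 36 were over the threshold in 12 of 12 arrays and 8 in 3 to 11 arrays. The other 10 were Rab3a, Rab15, Rab25, Rab26, Rab27a, Rab38, Rab39a, Rab3il1, Rab11fip3 and Rab11fip4, of which 8 were over the threshold in 0 arrays. Rab25, known from polarized epithelia, and Rab27a, known from secretory cells, were among those 8. Rab38 was over the threshold in 2 arrays and Rab3a in 1. In bulk cultures a signal does not tell fewer cells with a transcript from less of it per cell.

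Arginine withdrawal changed few of these transcripts in tumor cells. With limma, 1 of the 44 tested genes rose (Rab40c) and 2 fell (Ehd3 and Rab3d), which is 6.82% of them, against 0.965% higher and 0.944% lower among all 9745 tested probe sets. The median change of the 44 genes was -0.08 on the log2 scale and that of all tested probe sets was -0.05, and 15 genes lay above 0 and 29 below. The 3 arginine-deficient arrays lay wholly above the 3 arginine-sufficient arrays for 2 genes and wholly below for 8, where 9.69% and 13.6% of all tested probe sets did so.

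Ehd3, which acts in traffic from early endosomes to the recycling compartment, had MAS 5.0 signals of 27.7, 76 and 17.4 in arginine-deficient tumor cells, against 161.8, 240.3 and 256 in arginine-sufficient tumor cells of experiments 1, 2 and 3. The groups did not overlap, and every arginine-deficient array was under the expression threshold while 2 of the 3 arginine-sufficient arrays were over it. The fitted log2 change was -2.70 ± 0.43 (SE, n = 3 each, adjusted p = 0.0102). As the lower group was below the threshold throughout, the measured bound is a level at least 1.37-fold lower in arginine-deficient tumor cells. With low signals raised to the threshold before the fit the change was -0.51 and did not pass (adjusted p = 0.339). All 9 ratios between the arrays were at least 2-fold lower. In normal cells the signals were 621.2, 922 and 491.7 without arginine, against 869.2, 1043.1 and 682.8 with it. Every normal array was above every tumor array. The arginine-deficient culture of each normal experiment was below its own arginine-sufficient partner, although the groups overlapped. The log2 change there was -0.38, with a 95% interval of -1.31 to 0.55 and an adjusted p of 0.845.

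Rab3d, a Rab of secretory granules in exocrine cells, had signals of 490.9, 808.9 and 755.2 in arginine-deficient tumor cells, against 1117.1, 1608.7 and 1661.8 in arginine-sufficient tumor cells. All arginine-deficient arrays were below all arginine-sufficient arrays, and the level was 2.15-fold lower, a log2 change of -1.11 ± 0.22 (SE, n = 3 each, adjusted p = 0.025). In normal cells the signals were 1098.9, 1559.9 and 1294.3 without arginine, against 1312.6, 1448.5 and 1403.8 with it, and the groups overlapped. The log2 change in normal cells was -0.09, with a 95% interval of -0.57 to 0.39. Rab3d was the single gene to meet the 2-fold rule in tumor cells, which asks that 6 or more of the 9 ratios between arginine-deficient and arginine-sufficient arrays reach 2 one way and that the probe set be expressed in 3 of the line's 6 arrays. Ehd3 met the ratios but was not expressed in enough tumor arrays. The rule was met by 1.03% of 8757 expressed probe sets upward and 1.07% downward. Rab3d no longer met it without the arginine-deficient tumor array of experiment 1 or the arginine-sufficient one of experiment 3. In normal cells 0 genes met it, where 0.535% and 0.262% of 8786 probe sets did.

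Rab40c, which carries a SOCS box and serves as the adapter of a ubiquitin ligase, had signals of 296, 376.7 and 394 in arginine-deficient tumor cells, against 205.4, 182 and 221.6 in arginine-sufficient tumor cells. The groups did not overlap, and the level was 1.74-fold higher, a log2 change of 0.80 ± 0.19 (SE, n = 3 each, adjusted p = 0.0488). In normal cells the signals were 350, 294.2 and 357.6 without arginine, against 317.7, 262 and 301.7 with it. Each arginine-deficient culture was above its partner of the same experiment, the groups overlapped, and the log2 change was 0.18 with a 95% interval of -0.22 to 0.59.

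These calls rested on few arrays. Without the arginine-sufficient tumor array of experiment 2 the count was 0, and Ehd3 was then at -2.62 (adjusted p = 0.0537). Calls among all 9745 tested probe sets fell there too, from 94 to 28 higher and from 92 to 5 lower. With the arginine-sufficient tumor array of experiment 3 left out, or the arginine-deficient one of experiment 2, Ehd3 alone passed. Rab3d also lost its call without the arginine-deficient tumor array of experiment 1 (-0.88, adjusted p = 0.062), and Rab40c lost its call in 18 of 27 alternatives. The tumor arrays of experiment 2 were noted as run without trypsin and those of experiments 1 and 3 with it. With both tumor arrays of experiment 2 left out, Ehd3 kept its call at -3.21 (adjusted p = 0.00864). Rab3d was then at -1.16 (adjusted p = 0.239) and Rab40c at 0.68 (adjusted p = 0.471). Among all 9745 tested probe sets, calls fell as well, from 94 to 7 higher and from 92 to 3 lower. Within chip lots, Ehd3 differed by -2.49 with 2 arrays against 2 and by -3.12 with 1 against 1. With the experiment as a block, 6 genes passed, 2 higher and 4 lower, the added ones being Rab2a, Rab31 and Rab5if. Under that block 4.79% of all tested probe sets were higher and 6.18% lower, so the share of these genes was near that of all probe sets.

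**Figure D1:**
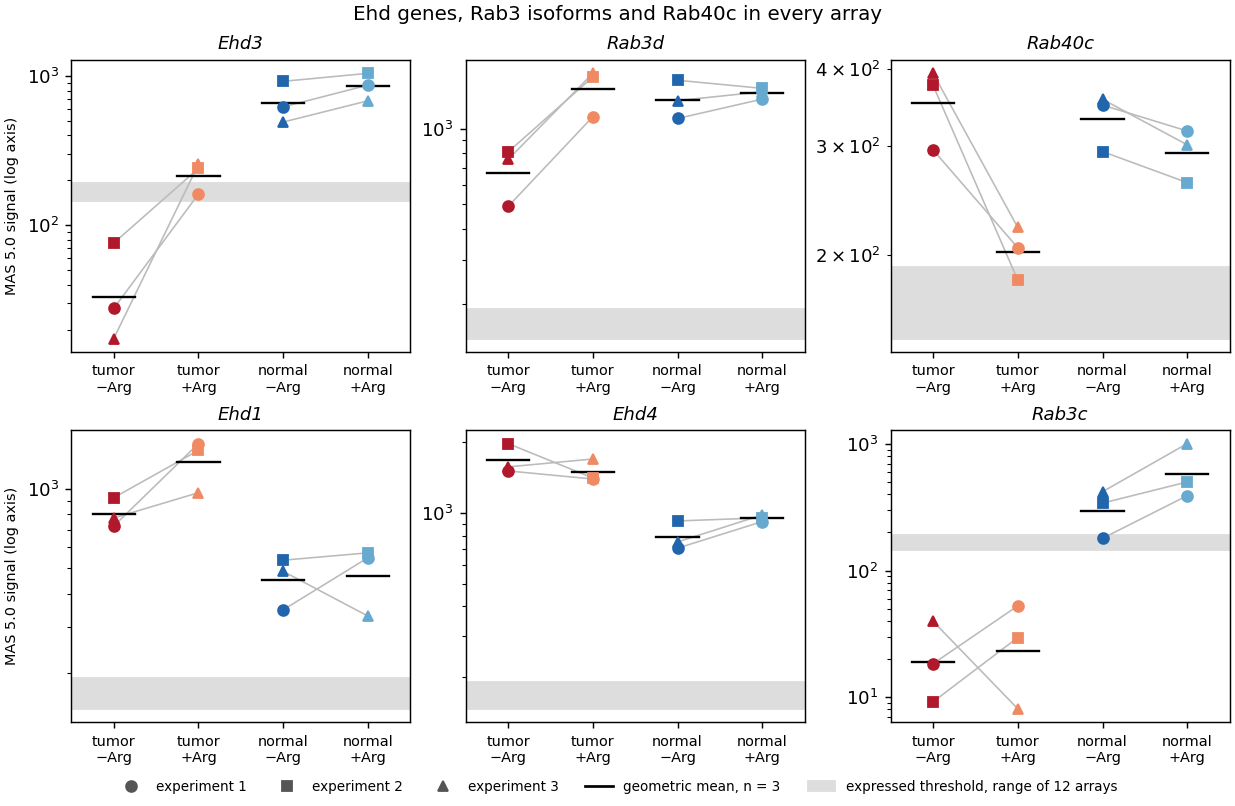
MAS 5.0 signal (log axis) of Ehd3, Rab3d, Rab40c, Ehd1, Ehd4 and Rab3c in each of the 12 arrays, by cell line and arginine supply, with the range of the expression threshold as a grey band. Ehd3 is below the band in arginine-deficient tumor cells (17.4 to 76) and highest in normal cells, and Rab3c is below it in all 6 tumor arrays.

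The sequences before the starts of the 3 genes called in tumor cells are shown because these genes moved under the same treatment, 2 down and 1 up. They are the 250 bases before each start in RefSeq on the GRCr8 build, at chr6:27417446-27417695 for Ehd3, chr8:28725268-28725517 for Rab3d and chr10:15440660-15440909 for Rab40c, all on the minus strand and written 5′ to 3′ in the direction of the gene.
Ehd3: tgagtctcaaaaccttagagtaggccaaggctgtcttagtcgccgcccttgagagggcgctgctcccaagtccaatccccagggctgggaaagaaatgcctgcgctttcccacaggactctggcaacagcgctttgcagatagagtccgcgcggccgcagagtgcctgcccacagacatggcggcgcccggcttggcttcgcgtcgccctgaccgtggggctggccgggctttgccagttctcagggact
Rab3d: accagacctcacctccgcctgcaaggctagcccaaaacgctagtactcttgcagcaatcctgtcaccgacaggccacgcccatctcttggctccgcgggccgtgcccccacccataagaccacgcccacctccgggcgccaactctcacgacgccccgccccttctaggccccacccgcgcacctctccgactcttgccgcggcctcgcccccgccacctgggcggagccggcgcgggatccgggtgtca
Rab40c: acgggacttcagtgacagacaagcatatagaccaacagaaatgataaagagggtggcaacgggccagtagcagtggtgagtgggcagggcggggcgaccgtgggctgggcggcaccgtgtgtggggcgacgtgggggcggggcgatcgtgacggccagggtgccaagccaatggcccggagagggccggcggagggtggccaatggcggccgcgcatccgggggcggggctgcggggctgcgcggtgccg
The windows of Rab3d and Rab40c were rich in G and C, at 70% and 70.4%, and that of Ehd3 held 63.2%. The median was 63.6% over the 45 of 54 genes with a window and 51.2% over all 33469 windows. A search of both strands for the E-box CACGTG, the amino acid response core TGATGNAA and the cyclic AMP element TGACGTCA found none of them in these 3 windows. Among the 45 genes, CACGTG was in 3 (Rab31, Rab3il1 and Rab5a), or 6.67%, against 5.59% of all windows. TGATGNAA was in 0, against 3.4%, and TGACGTCA was in 2 (Rab11fip3 and Rab25), or 4.44%, against 1.59%. A match is a description of letters and not of a bound site.

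The other EHD genes on the array, Ehd1 and Ehd4, did not pass on arginine withdrawal in either line. Ehd1, which acts in exit from the recycling compartment, had signals of 721.9, 924.9 and 774.8 in arginine-deficient tumor cells, against 1484.3, 1399.5 and 966.6 in arginine-sufficient tumor cells. Its groups did not overlap, but the log2 change of -0.65 ± 0.25 did not pass (adjusted p = 0.219), and a second probe set of Ehd1 gave -0.24. In normal cells Ehd1 stood at 347.4, 536 and 486.3 without arginine, against 547.4, 571.5 and 329.2 with it, with overlapping groups. Ehd4, an early endosome member of the family, had 1512.2, 1977.9 and 1573.5 in arginine-deficient tumor cells, against 1397.1, 1411.4 and 1700.5 in arginine-sufficient tumor cells. The Ehd4 groups overlapped, with a log2 change of 0.16 (adjusted p = 0.708). In normal cells Ehd4 had 708.5, 925.5 and 753 without arginine, against 920, 954.1 and 981.8 with it. The arginine-deficient array of experiment 2 lay within the arginine-sufficient range, and the change of -0.27 did not pass (adjusted p = 0.67).

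Nor did the other Rab3 isoforms, which share with Rab3d a role in regulated secretion, pass in tumor cells. Rab3a was not tested, with signals of 57.1, 116.3 and 140.4 in arginine-deficient tumor cells against 159.7, 148.9 and 194.8 in arginine-sufficient tumor cells, 1 of which was over the threshold. In normal cells Rab3a had 118.4, 101.8 and 92 without arginine, against 119.4, 121.7 and 34.5 with it. Rab3b had 153.1, 242 and 164.6 in arginine-deficient tumor cells, against 179, 173.1 and 125.7 in arginine-sufficient tumor cells, a log2 change of 0.22 (adjusted p = 0.823). In normal cells Rab3b had 204.2, 211.4 and 154.9 without arginine, against 89.4, 158.4 and 217.3 with it. Both of these isoforms were near or under the threshold, and their groups overlapped apart from Rab3a in tumor cells. Rab3c had 18.4, 9.2 and 39.7 in arginine-deficient tumor cells, against 52.7, 29.6 and 8.1 in arginine-sufficient tumor cells, all below the threshold. In normal cells Rab3c had 179.6, 340.9 and 419.1 without arginine, against 390.2, 500.8 and 1005.5 with it, a log2 change of -0.98 ± 0.69 (adjusted p = 0.711). The lowest values of Rab3c in normal cells were thus without arginine, but the groups overlapped.

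In normal cells 0 of the 44 genes passed for arginine withdrawal, where limma called 0.133% of all tested probe sets higher and 0.0308% lower. At an unadjusted p under 0.05, 0 genes were higher and 2 lower, against 4.07% and 5.37% of all tested probe sets. The plain linear model called 0 of all tested probe sets in either direction, so it says nothing particular to these genes. The arrays without arginine lay wholly above those with it for Rab28 and Rab6a, and wholly below for Rab4a, against 6.18% and 7.76% of all tested probe sets. Rab4a, of rapid recycling from early endosomes, changed by -0.59 on the log2 scale in normal cells (adjusted p = 0.419) and by -0.40 in tumor cells (adjusted p = 0.425).

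The difference between the responses of tumor and normal cells was called for 0 of the 44 genes and for 0% of all tested probe sets in either direction. With the plain linear model, too, 0 of all tested probe sets were called. At an unadjusted p under 0.05 it was 1 gene higher and 2 lower, against 2.75% and 2.89% of all tested probe sets. For Ehd3 the difference was -2.32 ± 0.61 on the log2 scale (adjusted p = 0.824), with a 95% interval of -3.63 to -1.005. For Rab3d it was -1.02 ± 0.31 (adjusted p = 0.824), and for Rab40c it was 0.62 (adjusted p = 0.837). The fall of Ehd3 in tumor cells was therefore not shown to differ from the change in normal cells once all probe sets were taken into account.

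Over both cell lines, 1 gene passed. Ehd3 was lower without arginine by -1.54 ± 0.31 on the log2 scale (adjusted p = 0.0177), where 1.6% of all tested probe sets were higher and 1.35% lower. With low signals raised to the threshold Ehd3 was at -0.44 and did not pass (adjusted p = 0.181), while Rab3d and Rab40c did. With the experiment as a block 7 genes passed, where 6.1% of all tested probe sets were higher and 8.58% lower, and with the chip lot as a block 0 genes passed. The count was also 0 without the arginine-sufficient tumor array of experiment 2 or the arginine-deficient normal array of experiment 3, 2 without the tumor array of experiment 1 of either supply, and 4 without the arginine-deficient normal array of experiment 2. Of the 44 genes, 3 were lower in all 6 experiments (Ehd3, Rab2a and Rab4a) and 2 were higher in all 6 (Rab40c and Rab5a), against 10.1% of all tested probe sets lower and 6.96% higher in all 6. Rab2a, which acts between the endoplasmic reticulum and the Golgi, changed by -0.43 over both lines (adjusted p = 0.0868).

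**Figure D2:**
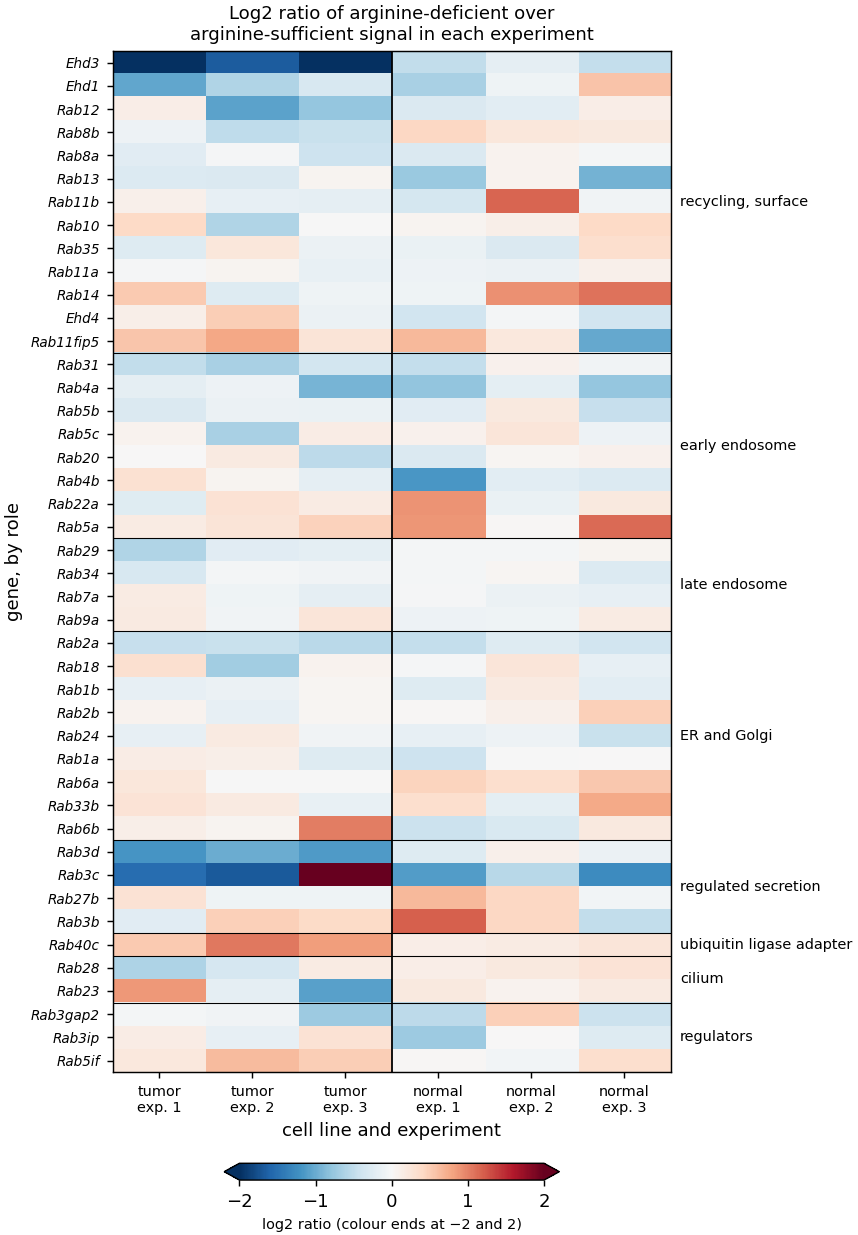
Log2 ratio of arginine-deficient to arginine-sufficient signal in each of the 3 experiments of tumor cells and of normal cells, for the 44 tested genes grouped by the membrane step they serve. Ehd3 has tumor ratios of -2.55, -1.66 and -3.88 and Rab3d of -1.19, -0.99 and -1.14, Rab3c has large ratios of both signs on signals under the threshold, and the rows of most other genes change sign between experiments.

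By membrane step, the genes had medians near 0 on arginine withdrawal in tumor cells. The median log2 change was -0.08 for the 13 tested genes of recycling and surface delivery, -0.02 for the 9 of the endoplasmic reticulum and Golgi, and -0.13 for the 8 of early endosomes. Apart from Ehd3, Rab3d and Rab40c no gene in any group passed. Rab31, of the trans-Golgi and early endosomes, had non-overlapping groups, at 1593.5 to 1754.5 in arginine-deficient and 2262.2 to 2507.5 in arginine-sufficient tumor cells, with a log2 change of -0.51 (adjusted p = 0.188). Rab5if, a protein named for an interaction with Rab5, was at 4595.2 to 6177.6 in arginine-deficient and 3331.2 to 4402.7 in arginine-sufficient tumor cells, a change of 0.45 (adjusted p = 0.18). Rab1a, one of the main Rabs of export from the endoplasmic reticulum, was at 5365.1 to 6718.3 in arginine-deficient and 5140.3 to 6430.6 in arginine-sufficient tumor cells, with a change of 0.00.

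The lines themselves differed in more of these genes. With arginine, 11 of the 44 genes were higher in tumor cells and 6 lower, or 38.6%, where 16.4% of all tested probe sets were higher and 18.1% lower, a share not far from that of these genes. The median difference was -0.01 on the log2 scale, with 22 genes above 0 and 22 below, and the called genes went both ways. These differences stand beside a different scan day and different marker levels, and their part in the result was not tested. The biliary keratin Krt7 was at 257.7 to 309.6 in tumor cells and 5007.5 to 6320.9 in normal cells, and the collagen Col1a1 at 340.3 to 592.4 in tumor cells and 17181.6 to 28460.1 in normal cells. Krt19, the other biliary marker on the array, was over the threshold in 0 arrays of either line. Recycling and surface delivery held 6 of the higher and 2 of the lower genes among its 13, with a median of 0.46.

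Rab11fip5, an effector that links Rab11 to recycling vesicles, had signals of 1869.3, 2110.1 and 2759.5 in arginine-sufficient tumor cells, against 427.6, 423 and 783.2 in arginine-sufficient normal cells. The groups were far apart, 4.25-fold or 2.09 ± 0.27 on the log2 scale (adjusted p = 5.15e-05). Rab35, of fast endocytic recycling, had 709.9, 572.9 and 647 in tumor cells, against 336.9, 346.5 and 276.1 in normal cells, a difference of 1.01 ± 0.17 (adjusted p = 0.000513). Ehd1 was 2.69-fold higher in tumor cells (1.43 ± 0.25, adjusted p = 0.000701), and Ehd4 was 1.57-fold higher (0.65 ± 0.17, adjusted p = 0.00861). Among the EHD genes, then, Ehd1 and Ehd4 were higher and Ehd3 lower in tumor cells, the last by -1.99 ± 0.43 on the log2 scale (adjusted p = 0.00302).

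Rab1b, of transport from the endoplasmic reticulum to the Golgi, had 1369.7, 1682.3 and 1726.5 in tumor cells, against 702.2, 781.7 and 657.4 in normal cells, a log2 difference of 1.15 ± 0.21 (adjusted p = 0.000809). Rab2a had 3433.7, 2844.5 and 2814.7 in tumor cells, against 1539.2, 1903.6 and 1732.8 in normal cells, a difference of 0.81 ± 0.18 (adjusted p = 0.00312). Neither gene's groups overlapped. Rab22a, of early endosomes, had 822.9, 635.4 and 816.9 in tumor cells, against 325.3, 474.9 and 407 in normal cells, a difference of 0.92 ± 0.20 (adjusted p = 0.00335). Rab27b, which docks secretory vesicles, had 288.8, 203.4 and 204.6 in tumor cells, against 67.5, 88.9 and 89.6 in normal cells. The normal arrays of Rab27b were all under the threshold, so it was at least 1.26-fold higher in tumor cells. The adjusted p of 0.00194 belongs to the fitted difference and not to this bound. With low signals raised to the threshold, Rab27b differed by 0.34 and did not pass (adjusted p = 0.245). Nor did Rab27b pass in that setting without arginine, at 0.48 (adjusted p = 0.0895). Rab8b, of delivery to the surface, had 444.2, 406.4 and 293 in tumor cells, against 240.6, 201 and 247.1 in normal cells, a difference of 0.72 ± 0.25 (adjusted p = 0.0423). Rab11a and Rab7a, the defining Rabs of recycling and late endosomes, were higher by 0.68 (adjusted p = 0.0107) and 0.46 (adjusted p = 0.0498).

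Rab3c was lower in tumor cells, with 52.7, 29.6 and 8.1 in tumor cells against 390.2, 500.8 and 1005.5 in normal cells. All tumor arrays were under the threshold, so Rab3c was at least 3.49-fold lower. The adjusted p of 0.00019 belongs to the fitted difference of Rab3c and not to this bound. Rab18, of the endoplasmic reticulum and lipid droplets, had 554, 604.9 and 297.4 in tumor cells, against 1680.9, 1252.8 and 2279.9 in normal cells. The groups were far apart, 3.64-fold or -1.86 ± 0.33 on the log2 scale (adjusted p = 0.000734). Rab13, known from epithelial junctions, had 347.8, 422.5 and 364.4 in tumor cells, against 934.8, 655.7 and 870.1 in normal cells, a difference of -1.11 ± 0.21 (adjusted p = 0.00109). Rab6b, a Golgi Rab best known from neurons, had 52.6, 98.8 and 58.1 in tumor cells, against 212.3, 187.6 and 163.2 in normal cells. The tumor arrays of Rab6b were all under the threshold and 2 of the 3 normal arrays over it, so it was at least 1.12-fold lower. The adjusted p of 0.00561 belongs to the fitted difference of Rab6b and not to this bound. With low signals raised to the threshold, Rab6b differed by -0.21 and did not pass (adjusted p = 0.174). Rab40c was lower by -0.53 ± 0.19 (adjusted p = 0.0431). Of the calls with arginine, that of Rab7a was lost in 18 of 27 alternatives, that of Rab40c in 13 and that of Rab8b in 12. All 3 were lost without the arginine-sufficient tumor array of experiment 1 and without that of experiment 2.

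The remaining genes did not pass between the lines with arginine. In early endosomes, Rab5a, Rab5b and Rab5c, which drive homotypic fusion, gave -0.64, 0.15 and 0.40, and Rab4b and Rab20 gave -0.03 and -0.10. Rab5a was at 143.4 to 392 in tumor cells and 336.9 to 410.8 in normal cells, with overlap. In the Golgi and endoplasmic reticulum Rab6a gave -0.39, Rab2b -0.02, Rab24 0.05 and Rab33b -0.10. In late compartments Rab9a, of return from endosomes to the Golgi, gave -0.05, Rab34 0.09 and Rab29 -0.21. Rab11b and Rab8a, of surface delivery, gave 0.46 and 0.44 on the same log2 scale, and the arrays of Rab8a did not overlap (adjusted p = 0.0894). Rab23 and Rab28, linked to cilia, gave -0.41 and 0.08. Rab3gap2 and Rab3ip, regulators of Rab3 and Rab8, gave -0.49 and -0.51.

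**Figure D3:**
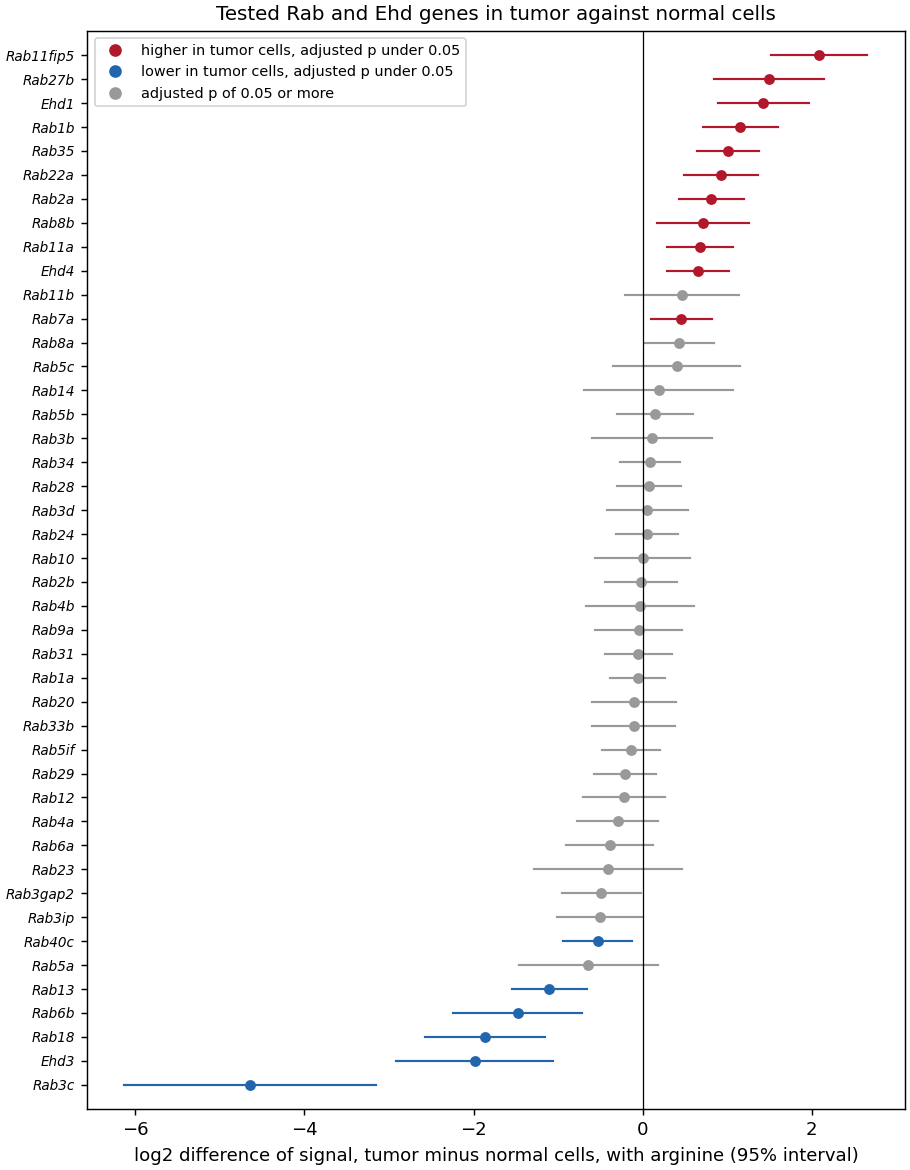
Log2 difference of tumor minus normal cells with arginine for the 44 tested genes, each point with its 95% interval, ordered by the difference. Rab11fip5 (2.09) and Ehd1 (1.43) lie to the right and Ehd3 (-1.99) and Rab18 (-1.86) to the left, and the points of Rab3c, Rab6b and Rab27b are fitted values with 1 line wholly under the threshold, where only a bound was measured.

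Without arginine, 10 of the 44 genes were higher in tumor cells and 10 lower, or 45.5%, where 19.5% of all tested probe sets were higher and 21.2% lower. The higher ones were Ehd1, Ehd4, Rab1b, Rab2a, Rab7a, Rab11a, Rab11fip5, Rab22a, Rab27b and Rab35. The lower ones were Ehd3, Rab3c, Rab3d, Rab3gap2, Rab5a, Rab6a, Rab12, Rab13, Rab18 and Rab29. Ehd3 was at least 4.16-fold lower in arginine-deficient tumor cells than in arginine-deficient normal cells, as the tumor arrays were all below the threshold. The adjusted p of 5.54e-06 belongs to the fitted difference of Ehd3 and not to this bound. Rab3d, with a difference of 0.05 with arginine (adjusted p = 0.874), was lower by -0.96 ± 0.22 without it (adjusted p = 0.00378). Rab11fip5 had 2750.5, 3599.9 and 3285.2 in arginine-deficient tumor cells, against 669, 490 and 385.5 in arginine-deficient normal cells, a difference of 2.67 (adjusted p = 5.11e-06). Rab8b, called with arginine, was at 0.08 without it (adjusted p = 0.817). With both tumor arrays of experiment 2 left out, 11 genes passed without arginine. Calls among all 9745 tested probe sets fell as well, from 1900 to 1230 higher and from 2064 to 1536 lower. Of 27 alternatives, Rab5a lost its call in 14, Rab3gap2 in 12, Rab12 in 10, Rab6a in 8, Rab22a in 7, and Rab29 and Rab7a in 6 each. Rab13 (adjusted p = 0.0526) and Rab22a (adjusted p = 0.062) lost this call without the arginine-deficient normal array of experiment 2, and Ehd1 (adjusted p = 0.0748) without that of experiment 1. Rab22a also lost it when either line's arginine-deficient culture from experiment 3 was dropped, and Ehd1 without the arginine-deficient tumor array of experiment 2.

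Probe sets of 1 gene did not always give the same difference between the lines. The probe set used for Rab10, of delivery to the surface, gave 0.00 with arginine (adjusted p = 0.995), whereas another gave 1.58 (adjusted p = 0.00022). For Rab11a the probe set used gave 0.68 and another -0.41 (adjusted p = 0.192), so its direction depends on the probe set. For Rab14 1 of 4 probe sets passed, at 0.71 (adjusted p = 0.00651). Read from its second probe set, Rab5b passed between the lines with and without arginine. In the same setting Rab7a lost its call with arginine, and Rab6a and Rab12 lost theirs without it. Rab22a had no call there with or without arginine, as its second probe set was expressed in fewer than 3 arrays of each line. With the mean over its probe sets, Rab22a kept its call with arginine but was at 0.30 without it (adjusted p = 0.226). The probe sets of Ehd1 and Ehd4 had the same direction: the second of Ehd1 gave 0.63 (adjusted p = 0.0433), and the other ones of Ehd4 gave 0.65 (adjusted p = 0.138) and 1.10 (adjusted p = 0.00166). Ehd3, Rab3d and Rab40c have 1 probe set each.

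**Figure D4:**
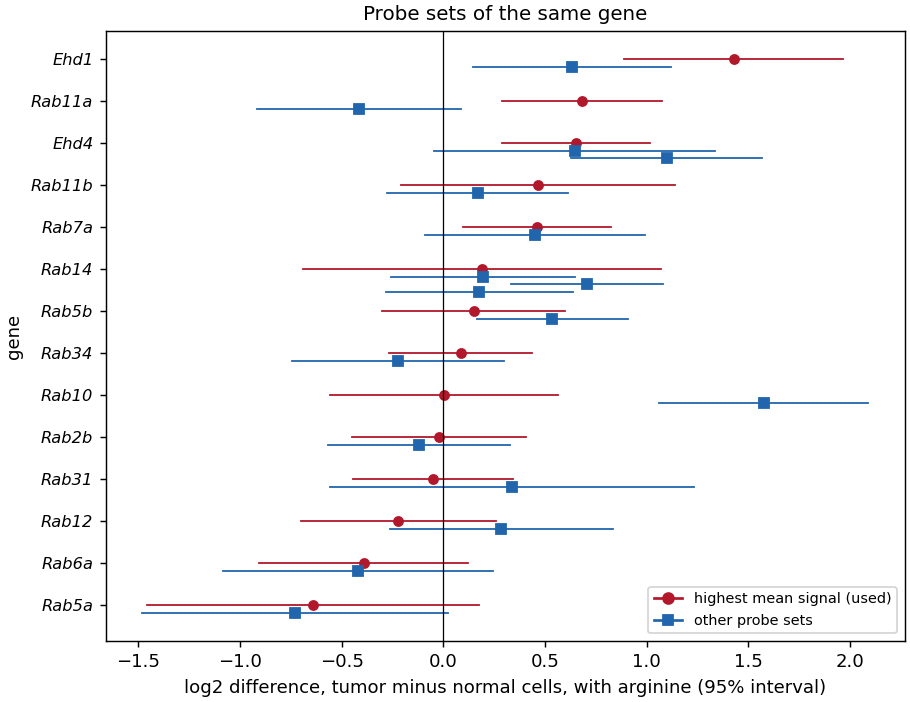
Log2 difference of tumor minus normal cells with arginine for each tested probe set of the 14 genes with more than 1 such probe set. The points of Rab10 and Rab11a are far apart, and those of Ehd1 and Ehd4 lie on the same side of 0.

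The genes that load, activate, switch off or follow Rabs and EHD proteins were counted from a list of 136, of which 98 were on the array and 88 were tested. On arginine withdrawal in tumor cells, 0 of the 88 rose and 1 fell, or 1.14%. That is near the 0.965% higher and 0.944% lower among all tested probe sets. The median was -0.11 against -0.05 for all tested probe sets. The gene that fell was Dennd5a, an exchange factor, at 378.5 to 556.5 in arginine-deficient and 829.4 to 1021.7 in arginine-sufficient tumor cells, without overlap. Its log2 change was -0.996 ± 0.18 (adjusted p = 0.0168), and over both lines it fell by 0.74 (adjusted p = 0.00864). Trappc3, a subunit of the TRAPP tethering and exchange complex, fell over both lines by 0.52 (adjusted p = 0.0485). The 2 genes called over both lines were 2.27% of the 88, near the 1.6% higher and 1.35% lower of all tested probe sets.

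Between the lines with arginine, 21 of the 88 were higher and 8 lower in tumor cells, or 33%, near the 16.4% higher and 18.1% lower of all tested probe sets. The 30 tested EHD partners and recycling genes held 9 of the higher and 3 of the lower, with a median of 0.29. Stx7, a syntaxin of endosome fusion, was higher by 1.67 (adjusted p = 3.6e-06), and Arf6, a GTPase of recycling at the surface, by 1.23 (adjusted p = 0.000167). Ehbp1, which binds EHD proteins, was lower by -0.96 (adjusted p = 0.00349), and Gdi2, which extracts Rabs from membranes, by -0.82 (adjusted p = 0.00115). Ehbp1l1, a relative of Ehbp1, was at 871.4 to 1082.2 in tumor cells and at 63.7 to 130.3, under the threshold, in normal cells.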

How the data were processed

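The values are intensities: MAS 5.0 signals, which the authors made with Microarray Suite 5.0 from each array's probe pairs and deposited on a linear scale. Deposited run records were read for chip lot, scan day and handling. Arrays hold no counts, so the number of arrays sets the precision.

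Values under 1 were raised to 1 before log2. Of 15923 probe sets, 57 controls were dropped and 9745 tested in limma 3.58.1 (R 4.3.3): 1 mean for each group, all 12 arrays, eBayes with trend, Benjamini-Hochberg over all tested probe sets, threshold 0.05. A bound sets the bright group's mean log2 signal against, per array, the higher of the expression threshold and the dim signal.

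Experiments pair cultures by the labels' numbering and the study's pair-wise design. Deviations of paired arrays correlated at 0.56, 0.0368 and 0.419 in tumor cells and 0.429, 0.42 and 0.383 in normal cells. Values in every array are given for Ehd and Rab3 genes, genes called on arginine withdrawal, and up to 8 called genes in each direction between the lines. The genes, lists and rules were chosen with earlier results of these data known. Symbols follow the array annotation, and promoter windows are RefSeq's. The fit was tested on simulated data.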

Additional observations from a re-analysis of the deposited data

How the results depend on the processing

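With 3 arrays a group, counts of genes called for arginine withdrawal moved with the setting, and Rab11a changed direction between the lines with its second probe set. In tumor cells the count of 3 was 0 with a plain linear model, 6 with the experiment as a replicate block and 1 with the 6 tumor arrays alone. It was 1 with both tumor arrays of experiment 2 left out, an alternative chosen after seeing the data. Calls among all tested probe sets, 94 higher and 92 lower in the main fit, moved too. In the same order of settings they were 21 and 8, 467 and 602, 106 and 80, and 7 and 3. Leaving out 1 array at a time gave 0 to 3. Over both lines the count of 1 was 2 with the highest 40% of signals, 2 with low signals raised to the threshold (Rab3d and Rab40c, without Ehd3), 2 with quantile normalization, 2 with median centring, 0 with a plain linear model, 7 with the replicate block, 0 with the chip lot as a block and 0 to 4 with 1 array left out. Among all tested probe sets, calls over both lines were 156 higher and 132 lower in the main fit. They were 82 and 55 with the plain model, 594 and 836 with the replicate block, and 128 and 69 with the chip lot. Without arginine, the count of 20 between the lines was 11 with both tumor arrays of experiment 2 left out. Calls among all tested probe sets also fell there, from 1900 to 1230 higher and from 2064 to 1536 lower. With arginine, leaving out 1 array gave 14 to 17. The 2-fold rule in tumor cells gave 1, against 0 with all 9 ratios, 0 with quantile normalization, 0 with median centring, 2 with no filter and 0 to 1 with 1 array left out. In normal cells it gave 0, against 1 with at least 5 of 9 ratios and 0 to 2 with 1 array left out. Of 35 values for named genes, 22 kept their side of the threshold throughout, and none of the 914 values these gave under the alternatives reversed. The 22 include the response differences of Ehd3, Rab3d and Rab40c, which never passed, in a contrast where few or no probe sets passed in any setting. Each scan day and chip lot held arrays of 1 line only, so these blocks could not separate batch from line in the comparisons between the lines. These 35 did not include Rab11a, which changed direction with its second probe set, nor Rab5a, Rab6a, Rab7a, Rab12 and Rab29. In tumor cells Rab40c lost its call in 18 of 27 alternatives, Rab3d in 8 and Ehd3 in 3. Between the lines with arginine, Rab7a lost its call in 18 of 27 alternatives, Rab40c in 13 and Rab8b in 12. The alternatives between the lines include a fit on second probe sets, which repeats the main fit for genes with 1 probe set. The cause was not tested. Genes near the threshold, such as Rab6b, Rab3b and Ehd3 in tumor cells, have the least signal over background.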
